A study of Homo sapiens with 24 samples.

Results

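Human embryonic stem cells grown without feeder cells were treated for 5 days with AZD3965, an inhibitor of the monocarboxylate transporter MCT1, and compared with cells of the same line given DMSO. These 6 arrays, chosen by their titles out of the 24 samples of the series, hold the lines H1, H9 and HSF1, with 1 DMSO array and 1 inhibitor array (250 nM) for each line. All 3 are established human embryonic stem cell lines, and the 6 cultures share the absence of a feeder layer. The matching 6 feeder-supported arrays, from the same lines, treatments and duration but grown with mouse embryonic fibroblasts, served for comparison. A further 6 feeder-free arrays of H9 and HSF1 in unconditioned medium, 3 per line, carry no label for DMSO or inhibitor. The series was set up to ask how feeders and their secreted factors bear on stem cell metabolism. The inhibitor arrays were meant to address what slowing glycolysis does to gene expression. The rate of glycolysis is not measured on these arrays. Total RNA was measured on Affymetrix U133 Plus microarrays, and 16333 of 19775 annotated genes passed the filter on low values.

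MCT1 carries lactate, pyruvate and ketone bodies across the plasma membrane together with a proton, in the direction that the gradients set. Pluripotent stem cells take up much glucose and release much of it as lactate, so that lactate export, intracellular pH and the regeneration of NAD+ are tied to one another. AZD3965 is a small molecule that blocks this carrier. The primed pluripotent state of these lines depends on FGF and Activin signalling and on the factors OCT4, SOX2 and NANOG, with OTX2 as a further factor of the primed state.

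The cells expressed the markers of pluripotent cells with and without the inhibitor. The mean level of 8 pluripotency markers lay between 12.7 and 12.9 on the log2 scale on the DMSO arrays and between 12.6 and 12.9 on the inhibitor arrays, with 0 of 8 higher and 3 of 8 lower past the test. The marker OCT4 (POU5F1) and the inhibitor's target have no probe set naming that gene alone and were not analysed here. SOX2 differed by -0.05 (SE 0.05, adjusted p = 0.516) and NANOG by 0.25 (SE 0.09, adjusted p = 0.105). Mean levels of the neuroectoderm, mesoderm, endoderm and trophoblast markers stayed between 5.22 and 6.43 on all 6 arrays, close to the array medians of 6.09 to 6.15, and of these markers AFP alone passed the test, downwards. The fibroblast and mesenchyme markers ranged from 6.14 to 7.72 with DMSO and from 6.46 to 8.19 with the inhibitor, and COL1A1 and COL1A2 among them rose. In RNA from whole cultures, fewer cells of a type and less RNA per cell cannot be told apart.

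The spread of values over the array was slightly wider with the inhibitor in 3 of 3 lines, with an interquartile range of 3.08 to 3.22 with DMSO and 3.20 to 3.30 with the inhibitor. After quantile normalization, which removes that difference, 3452 genes passed against 3313. The ACTB 3' minus 5' probe difference, which grows as RNA degrades, rose in H1 and fell in H9 and HSF1, with changes between -0.18 and 0.17. Inhibitor and DMSO arrays of 1 line correlated at 0.978 to 0.988 across genes, and the lowest correlation between any of the 6 arrays was 0.957. The labels name 1 culture per line and treatment, so p-values measure how alike the lines responded.

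With the inhibitor, 2085 genes were higher and 1228 were lower, 3313 in all or 20.3% of the genes tested (limma, lines paired, Benjamini-Hochberg adjusted p under 0.05). The higher genes were 12.8% and the lower genes 7.52% of those tested. Most changes were small: the median absolute log2 difference of the genes called was 0.45, and 243 genes (1.49%) changed at least 2-fold, 172 of them upwards and 71 downwards. All 3313 moved the same way in 3 of 3 lines, as did 56.9% of all genes tested. In 2267 of them the 3 DMSO values and the 3 inhibitor values did not overlap, against 23.1% of all genes tested. The differences of the lines correlated across genes at 0.679 for H1 and H9, 0.688 for H1 and HSF1 and 0.653 for H9 and HSF1. H9 responded most widely, with 381 genes at least 2-fold higher, against 136 in H1 and 226 in HSF1. The count rested on the line as a block: 245 genes passed without it, 1853 without H1 and 2186 without HSF1. Of the 3313 genes 1752 passed without H1, 2390 without H9 and 1970 without HSF1. A fit over 12 arrays with the line as block, which leaves the lines' differing responses to feeders in the spread, called 145.

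**Figure D1:**
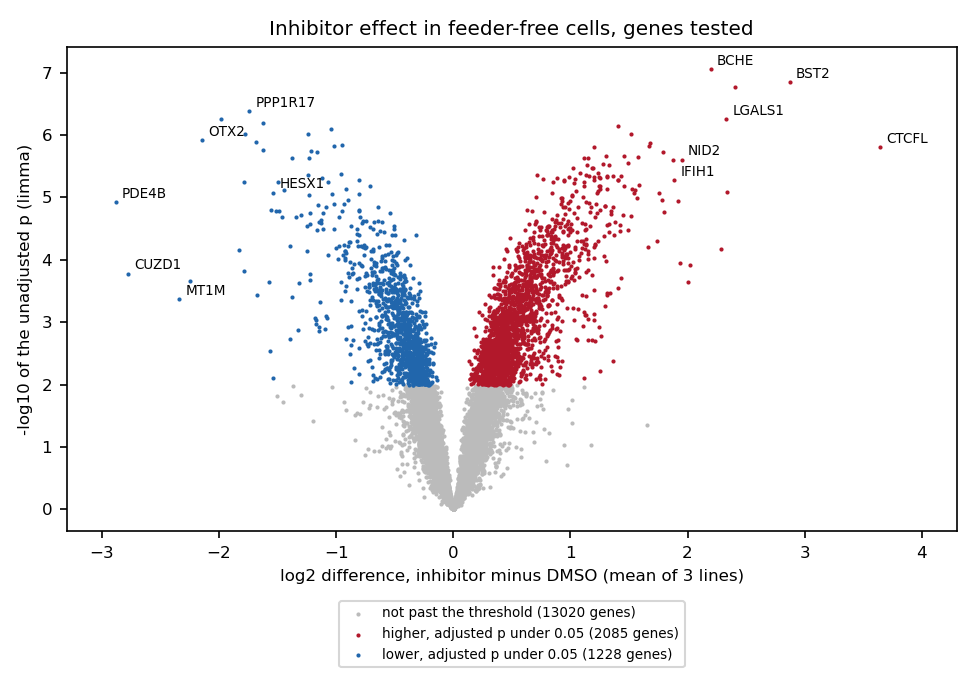
Log2 difference between inhibitor and DMSO (x axis, mean of 3 lines) against -log10 of the unadjusted limma p (y axis) for the 16333 genes tested in feeder-free cells. The 2085 higher genes (red) and 1228 lower genes (blue) reach from -2.88 for PDE4B to 3.64 for CTCFL, and the 13020 other genes are grey.

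The gene that rose most was CTCFL, a paralogue of the chromatin insulator protein CTCF whose expression is normally confined to the male germ line. Its log2 level was 6.06, 4.51 and 6.001 on the DMSO arrays of H1, H9 and HSF1 and 8.90, 8.75 and 9.84 on the inhibitor arrays. The groups lay far apart in every line, a difference of 3.64 (SE 0.24, adjusted p = 0.00123) or 12.5-fold. The DMSO levels of CTCFL lie at or under the array medians, where background limits how well a low level, and so a fold change, is measured. Of 11 tested genes on a list of germline and cancer-testis genes, 2 rose (CTCFL and DPEP3, 1.43) and 2 fell (DAZL, an RNA-binding protein of germ cells, -1.14, and TEX14, -0.80), and the list's median was -0.003.

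BST2, which encodes tetherin, a membrane protein that holds budding virus particles at the cell surface, rose next most. It stood at 7.69, 8.82 and 8.47 with DMSO and at 10.90, 11.30 and 11.39 with the inhibitor in H1, H9 and HSF1, a 7.32-fold rise (log2 difference 2.87, SE 0.13, adjusted p = 0.000933). LGALS1, encoding galectin-1, a secreted lectin that binds cell-surface sugars, went from 7.74, 7.46 and 7.11 to 9.79, 9.67 and 9.83, a 5.03-fold rise (SE of the log2 difference 0.13). BCHE, encoding butyrylcholinesterase, went from 4.796, 5.34 and 4.76 to 6.91, 7.54 and 7.05 (log2 difference 2.20, SE 0.09). None of the DMSO values of these 3 genes reached the lowest inhibitor value. Further large rises were those of the long non-coding RNA LINC01234 (2.40), CLIC6 (2.34), GABRP, a GABA-A receptor subunit (2.00), NID2, a basement membrane nidogen (1.95), CDC42EP5 (1.94), the homeobox gene HMX2 (1.92), LINC02249 (1.87) and ASMTL (1.80). LINC02249 has several probe sets, not all of which moved upwards. The precursor gene of the peptide neurotensin, NTS (2.29), and MACC1-OT1 (2.02) rose in each line, but H1 held so much more of both that its DMSO level overlapped the inhibitor levels of other lines. CDC42EP5, BCHE, LINC01234, CLIC6, GABRP and LINC02249 had DMSO values under the array median in every line, near background. Over the mean of a gene's probe sets the rise was 1.35 for LINC01234, 1.45 for CLIC6 and 0.61 for LINC02249, all still past the test.

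The largest fall was that of PDE4B, whose product breaks down cyclic AMP. Its level went from 9.52, 8.65 and 8.71 to 6.63, 6.55 and 5.05 in H1, H9 and HSF1, a log2 difference of -2.88 (SE 0.26, adjusted p = 0.00177) or 7.37-fold. CUZD1 went from 8.63, 10.63 and 10.64 to 7.198, 7.37 and 7.01 (-2.78, SE 0.38). The homeobox factor OTX2 went from 10.14, 10.81 and 10.60 to 8.42, 8.43 and 8.26 (-2.15, SE 0.13), so that its inhibitor levels lay within a narrow band under every DMSO level. Also among the largest falls were the potassium channel gene KCNK12 (-1.98), the histone genes H2BC12 (-1.83) and H2AC6 (-1.62), the transporter gene ABCA5 (-1.79), the chemokine gene CCL26 (-1.78), PLCL2 (-1.77), PPP1R17, an inhibitor of protein phosphatases (-1.74), LINC01844 (-1.68), the serotonin receptor gene HTR7 (-1.68) and SMOC2, encoding an extracellular calcium-binding protein (-1.63). SEMA6D, a semaphorin, fell by 2.25 on the log2 scale at the probe set used. Over the mean of each gene's probe sets the log2 difference was -1.56 for PDE4B, -0.76 for SEMA6D, -0.84 for HTR7, -0.87 for SMOC2 and -1.01 for PPP1R17, all still past the test, and ABCA5 fell under the filter. HTR7 fell in each line, while its low H9 DMSO level made the groups overlap. Mean inhibitor levels of KCNK12 and ABCA5 (4.98 each), SEMA6D (5.30), CCL26 (5.31) and SMOC2 (5.84) lay under the array medians, near background. PDE4B stood there in HSF1 alone. Background limits how well these falls are measured.

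**Figure D2:**
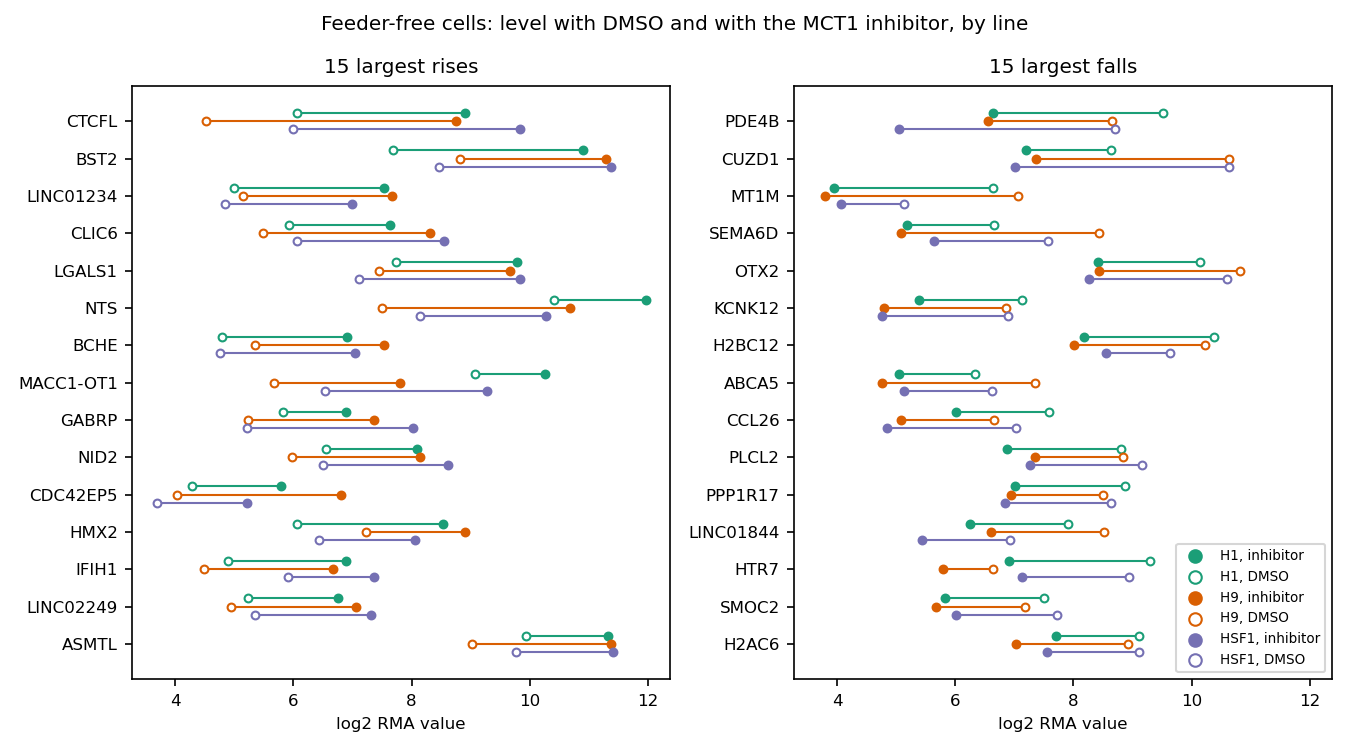
Log2 RMA value (x axis) of the 15 genes with the largest rise (left) and the 15 with the largest fall (right) among genes called, 1 line of points per cell line. Open points are DMSO arrays and filled points inhibitor arrays, and each bar joins the pair of 1 line. All 3 bars of a gene run the same way because the genes were picked for that.

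Genes of the interferon pathway, of class I antigen presentation and of virus restriction that passed the test rose. Of 30 interferon response genes tested, 6 rose and 0 fell, with a list median of 0.10; of 17 genes of MHC class I antigen presentation, 9 rose and 0 fell, with a median of 0.38; and of 17 antiviral restriction factors, 5 rose and 0 fell, with a median of 0.07. Over all genes tested 12.8% rose, 7.52% fell and the median was -0.01, so the class I share stood farthest above the background and the interferon share nearer to it. Among sensors of viral nucleic acid IFIH1, encoding the RNA sensor MDA5, rose by 1.89 (SE 0.15), while CGAS, the DNA sensor, fell by 0.43 but did not pass without H1 (adjusted p = 0.123) or without HSF1 (0.119). IFIH1 went from 4.88, 4.48 and 5.90 to 6.90, 6.66 and 7.36 in H1, H9 and HSF1, without overlap. The DMSO values of IFIH1 and DDX60 lay under the array median in every line, near background, and over the mean of its probe sets IFIH1 fell under the filter, as did CGAS. Its partner among RNA sensors, DHX58, differed by 0.28 (adjusted p = 0.0729). Of the effectors, the helicase gene DDX60 rose by 1.31 (SE 0.10), IFIT1, whose product binds foreign RNA, by 1.24 (SE 0.23), HERC6 by 0.98 (0.49 over the mean of its probe sets), IFI6 by 0.46 and the RNA-dependent kinase gene EIF2AK2 by 0.43. The membrane factors IFITM2 and IFITM3 each rose by 0.39, the cytidine deaminase gene APOBEC3B by 0.89 and SAMHD1 by 0.37.

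In the class I pathway the light chain and the peptide-producing machinery led. B2M, the invariant light chain of class I molecules, went from 10.91, 10.54 and 11.50 to 11.99, 11.83 and 12.38, a 2.12-fold rise (log2 difference 1.08, SE 0.08). PSMB9, a subunit of the immunoproteasome, went from 6.08, 6.12 and 6.56 to 7.35, 7.53 and 7.73 (1.28, SE 0.09), and the proteasome activator subunit PSME1 rose by 0.70. No DMSO value of B2M or PSMB9 reached an inhibitor value. Among heavy chains HLA-E rose by 0.55, HLA-B by 0.54, HLA-C by 0.42, HLA-F by 0.38 and HLA-G by 0.25, and the peptide-loading factor TAPBP by 0.39. The HLA genes are close in sequence, and how far their probe sets share signal was not tested.

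The 6 members of the interferon, class I and restriction lists that rose at least 2-fold (IFIT1, IFIH1, DDX60, B2M, PSMB9 and BST2) are shown through 3 of their promoters, since 5 of the 6 hold the same motif. The 250 bases before the annotated start were read from RefSeq (GRCh38.p14) on the gene's strand, and all 6 genes matched. Capitals mark matches, on either strand and overlapping where they do, to GAAANNGAAA, the core of the element through which interferon-activated factors bind, and to TTCNNNGAA, the site bound by STAT factors. BST2 lies at chr19:17405631-17405880 on the minus strand, IFIT1 at chr10:89392373-89392622 on the plus strand and B2M at chr15:44711267-44711516 on the plus strand.
BST2: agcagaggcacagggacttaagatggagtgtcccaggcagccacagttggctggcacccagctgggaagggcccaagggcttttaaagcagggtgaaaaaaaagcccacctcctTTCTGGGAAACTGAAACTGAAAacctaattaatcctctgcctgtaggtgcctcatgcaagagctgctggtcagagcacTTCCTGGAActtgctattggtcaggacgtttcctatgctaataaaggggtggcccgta
IFIT1: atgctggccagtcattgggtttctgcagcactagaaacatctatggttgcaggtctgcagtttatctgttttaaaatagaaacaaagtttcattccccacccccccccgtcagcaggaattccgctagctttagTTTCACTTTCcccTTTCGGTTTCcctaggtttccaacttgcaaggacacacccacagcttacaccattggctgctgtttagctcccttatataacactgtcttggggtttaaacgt
B2M: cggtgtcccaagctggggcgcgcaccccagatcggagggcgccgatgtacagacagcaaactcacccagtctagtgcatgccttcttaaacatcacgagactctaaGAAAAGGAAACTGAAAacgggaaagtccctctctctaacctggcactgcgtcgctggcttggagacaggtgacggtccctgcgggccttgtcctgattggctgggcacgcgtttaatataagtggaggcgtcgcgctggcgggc
A match to GAAANNGAAA was found in 5 of the 6 promoters, with none in that of PSMB9, against 3.07% of 27305 promoters of the same length. The TTCNNNGAA motif was found in the promoters of BST2 and DDX60, against 6.78%. In BST2 the first TTCNNNGAA match overlaps a GAAANNGAAA match, and in B2M and BST2 the GAAANNGAAA matches overlap each other. A match describes the letters and is not evidence of binding. The 6 genes come from immune lists tied to the pathway that this motif serves, and list members that did not change were not searched. The share of promoters with a match therefore does not bear on the response to the inhibitor.

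**Figure D3:**
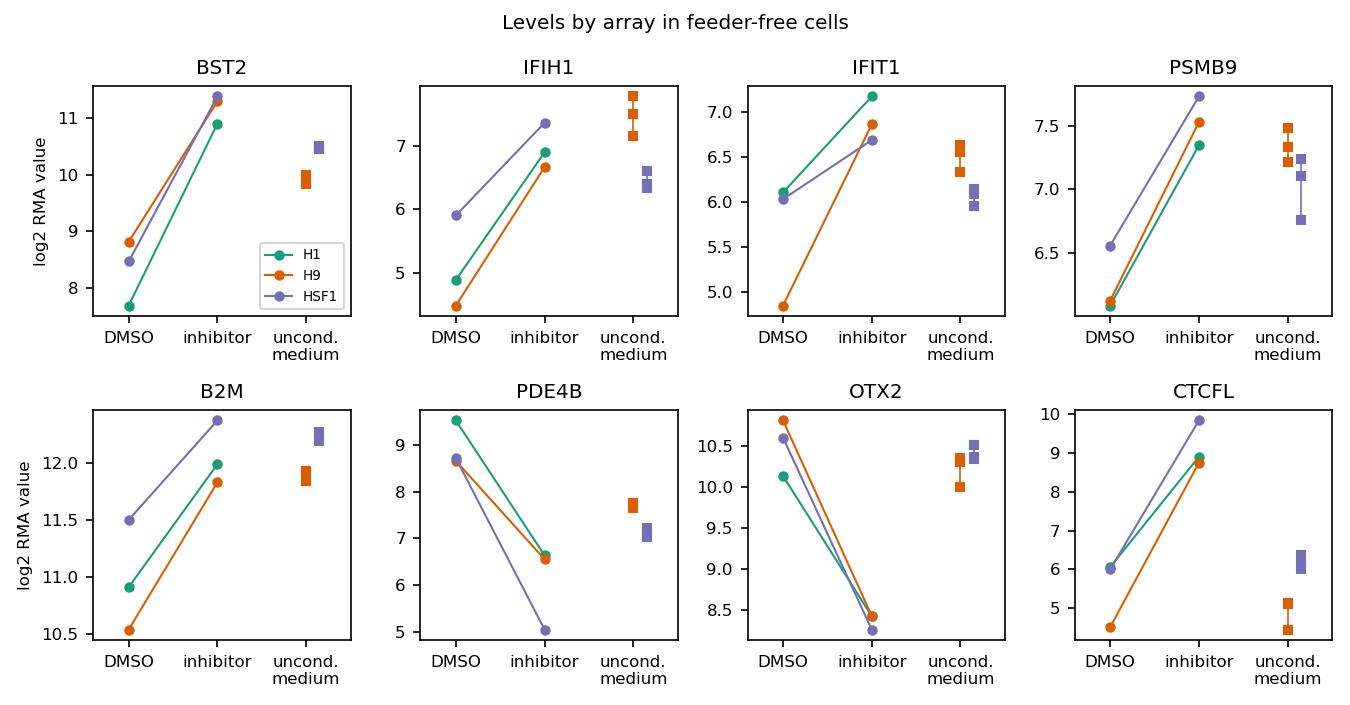
Log2 RMA values (y axis) of 8 genes on the feeder-free arrays. Circles joined by a line are the DMSO and inhibitor arrays of H1, H9 and HSF1, and squares are the lowest, median and highest of 3 unconditioned-medium arrays of H9 or HSF1. B2M in unconditioned medium lies close to its inhibitor levels and OTX2 and CTCFL lie close to their DMSO levels; y axes differ between panels.

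The arrays in unconditioned medium showed where untreated feeder-free cells of the same lines stood. They come from another experiment of the series, and experiment and treatment cannot be told apart. CTCFL ranged from 4.45 to 5.13 in H9 and from 6.005 to 6.36 in HSF1, near the DMSO arrays. OTX2 ranged from 10.002 to 10.36 in H9 and from 10.35 to 10.52 in HSF1, LINC01234 from 4.40 to 4.90 and from 4.84 to 4.92, all nearer to the DMSO than to the inhibitor arrays. Other changed genes, among them immune genes, stood elsewhere. BST2 ranged from 9.84 to 9.999 in H9 and from 10.45 to 10.51 in HSF1, between DMSO and inhibitor, and B2M from 11.84 to 11.93 and from 12.19 to 12.28, close to the inhibitor arrays. IFIH1 reached 7.15 to 7.78 in H9, above the inhibitor array at 6.66, and 6.33 to 6.60 in HSF1, under the inhibitor array at 7.36. IFIT1 in HSF1 (5.96 to 6.14) was near its DMSO level, and in H9 (6.33 to 6.63) nearer to its inhibitor level. PDE4B ranged from 7.66 to 7.76 in H9 and from 7.03 to 7.23 in HSF1, between both treatments. So did LGALS1, from 8.04 to 8.66 in H9 and from 8.50 to 8.76 in HSF1. NID2 ranged from 7.83 to 8.21 in H9, at the inhibitor level of 8.15, and from 7.77 to 7.88 in HSF1, under the inhibitor level of 8.63. The H9 arrays in unconditioned medium differed in RNA quality: their ACTB 3' minus 5' difference was 1.07, 3.25 and 2.89 and that of GAPDH 0.04, 0.68 and 0.63. The 6 compared arrays ranged from 0.466 to 1.17 for ACTB and from -0.004 to 0.145 for GAPDH, and the HSF1 unconditioned-medium arrays from 1.52 to 1.63 for ACTB. On the H9 array with the lowest ACTB difference BST2 stood at 9.91, B2M at 11.84, IFIH1 at 7.15, NID2 at 7.83, CTCFL at 4.45 and OTX2 at 10.002. The part of RNA quality in these levels was not tested.

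Enzymes of glycolysis changed little and in both directions. Of 20 glycolysis genes 2 rose and 2 fell, with a median of 0.02, so that 20% were called against 20.3% of all genes tested. The shares over all genes tested, 12.8% higher and 7.52% lower, apply beside the counts of every list below. HK2, a hexokinase that phosphorylates glucose on entry, fell from 10.86, 11.15 and 11.003 to 10.55, 10.62 and 10.54 in H1, H9 and HSF1 (-0.44, SE 0.07, adjusted p = 0.00694), and GAPDH by 0.15. PFKFB2, which sets the level of the activator of phosphofructokinase, rose by 0.82 (SE 0.08) and ENO2, an enolase, by 0.37. Around the lactate and pyruvate branch point, 3 of 19 genes rose and 1 fell, 21.1% in all and near the share over all genes. LDHA, the lactate dehydrogenase subunit that favours lactate formation, fell from 13.26, 13.11 and 13.10 to 13.05, 12.78 and 12.74 (-0.30, SE 0.05, adjusted p = 0.00729). PDK1, the kinase that holds pyruvate dehydrogenase inactive, rose by 0.47 (SE 0.07), and so did PDHA1, a subunit of that dehydrogenase, by 0.33; without H9, 3 genes of the list fell. ENO2 did not pass without H1 (adjusted p = 0.0773), nor the bicarbonate cotransporter SLC4A7 without HSF1 (0.0744). The glucose- and acid-responsive gene TXNIP differed by -0.15 (SE 0.11, adjusted p = 0.382). Of 19 genes of acid and bicarbonate transport 4 rose and 2 fell, with SLC4A4, a bicarbonate cotransporter too, at 0.65 and SLC4A7 at 0.37; without HSF1, 2 rose, and without H1 or without H9, 0 fell. The DMSO values of SLC4A4 lay under the array median in every line. Several calls rested on the probe set used: over the mean of probe sets HK2 differed by -0.24 (adjusted p = 0.113), PDK1 by 0.16 (0.139) and SLC4A7 by 0.33 (0.0533), none past the test, PFKFB2 rose by 0.36 and SLC4A4 fell under the filter.

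Many genes of mitochondrial respiration rose by small amounts. Of 42 nuclear oxidative phosphorylation genes 20 rose and 1 fell (NDUFA9, -0.24), against 12.8% and 7.52% of all genes tested. Of the 42, 37 lay above 0, and the median was 0.19. Complex I subunits ranged up to NDUFS4 (0.54), NDUFV1 (0.44), NDUFA10 and NDUFA13 (0.43 each). Complex III gave UQCRC2 (0.46) and CYC1 (0.38), complex IV COX7B (0.36) and COX6C (0.33), and the ATP synthase ATP5MC1 (0.41). NDUFA13 went from 12.03, 11.78 and 11.94 to 12.38, 12.31 and 12.35, without overlap. The count of risen respiratory genes was 9 without H1 and 10 with the mean of each gene's probe sets, where NDUFV1 did not pass (0.14, adjusted p = 0.205).

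Of 21 TCA cycle and anaplerotic genes 6 rose and 1 fell, with a median of 0.12. PCK2, the mitochondrial enzyme that makes phosphoenolpyruvate, rose by 0.66 (SE 0.09), the isocitrate dehydrogenase IDH2 by 0.64, SUCLG2 by 0.61 (SE 0.06) and MDH2 by 0.39, while PC, pyruvate carboxylase, fell by 0.38. Of 18 fatty acid oxidation genes 6 rose and 0 fell, with a median of 0.26, among them CPT1A, which admits fatty acids to mitochondria (0.52), and ECI1 (0.34); without H1 the count was 0. Among genes of mitochondrial biogenesis and uncoupling 5 of 19 rose and 0 fell, among them the nuclear receptor ESRRG (0.67), TFB1M (0.49) and the carrier UCP2 (0.41), and the count was 2 without H1 and 2 without HSF1. In nitrogen metabolism, where 3 of 13 genes rose and 2 fell, ASL of the urea cycle rose by 0.74 (SE 0.08) and the aspartate aminotransferase GOT1 by 0.42, and the glutamine carrier SLC38A1 fell by 0.31. Of 14 genes of the pentose phosphate and serine pathways TALDO1 (0.17) and PGLS (0.26) rose. Single calls here were fragile: TALDO1 and PGLS did not pass without any 1 of the lines (adjusted p = 0.0522 to 0.178), UCP2 not without H1 (0.147) or HSF1 (0.0962), ECI1 not without H1 (0.0877) or HSF1 (0.058), TFB1M not without H1 (0.0668) and SLC38A1 not without HSF1 (0.0593). With the mean of probe sets 1 gene of mitochondrial biogenesis rose and 1 fell; TFB1M differed by 0.22 (adjusted p = 0.154) and UCP2 by 0.33 (0.0781), and TALDO1 (0.0519) and PGLS (0.0511) did not pass either. The TCA list had 0 falls without any 1 of the lines, and the nitrogen list 1 without H1 and 0 without HSF1.

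Targets of the hypoxia-inducible factors split. Of 22 tested 7 rose and 3 fell, with a median of 0.14. MXI1, a MYC antagonist (0.99, SE 0.09), ERO1A, an oxidase of the endoplasmic reticulum (0.83), BNIP3, a mitophagy receptor (0.74), P4HA2 (0.71), FAM162A (0.53), DDIT4 (0.42) and VEGFA (0.28) rose. The prolyl hydroxylase EGLN3 (-0.61), ANKRD37 (-0.45) and HK2 fell. Without H1 the count of falls was 1, as over the mean of probe sets, where ERO1A rose by 0.52. In limma 0 of 19 cholesterol synthesis genes passed (1 at an unadjusted p under 0.05), and the lines did not move alike: the list's median difference was 0.12 in H1, -0.95 in H9 and -0.09 in HSF1. In H9, the sterol enzymes ACAT2 and DHCR7 went from 12.72 and 11.29 to 11.32 and 10.03, against 11.60 and 10.17 with DMSO and 11.63 and 10.22 with the inhibitor in H1. Without H9, 2 cholesterol genes rose and 1 fell. Fatty acid synthesis gave 1 rise of 12, the desaturase SCD5 (0.88), with DMSO values under the array median in every line. SCD5 differed by 0.17 (adjusted p = 0.186) over the mean of its probe sets, and 0 genes of the list were then higher; without H1, 2 of the list fell, and without H9, 2 rose. The stress lists were mixed: 4 of 24 integrated stress response genes rose, led by VLDLR (0.68) and AARS1 (0.49), and 4 fell, among them ATF4 (-0.22) and the cationic amino acid carrier SLC7A3 (-0.58), and of 17 unfolded protein response genes EDEM1 rose (0.60) and CRELD2 (-0.44) and CANX (-0.17) fell, CANX not without H1 (adjusted p = 0.161) or HSF1 (0.0847). Redox genes gave 3 rises of 20, with GPX4 at 0.43, and 1 fall, GCLC, which starts glutathione synthesis, at -0.41, with 3 falls without HSF1.

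**Figure D4:**
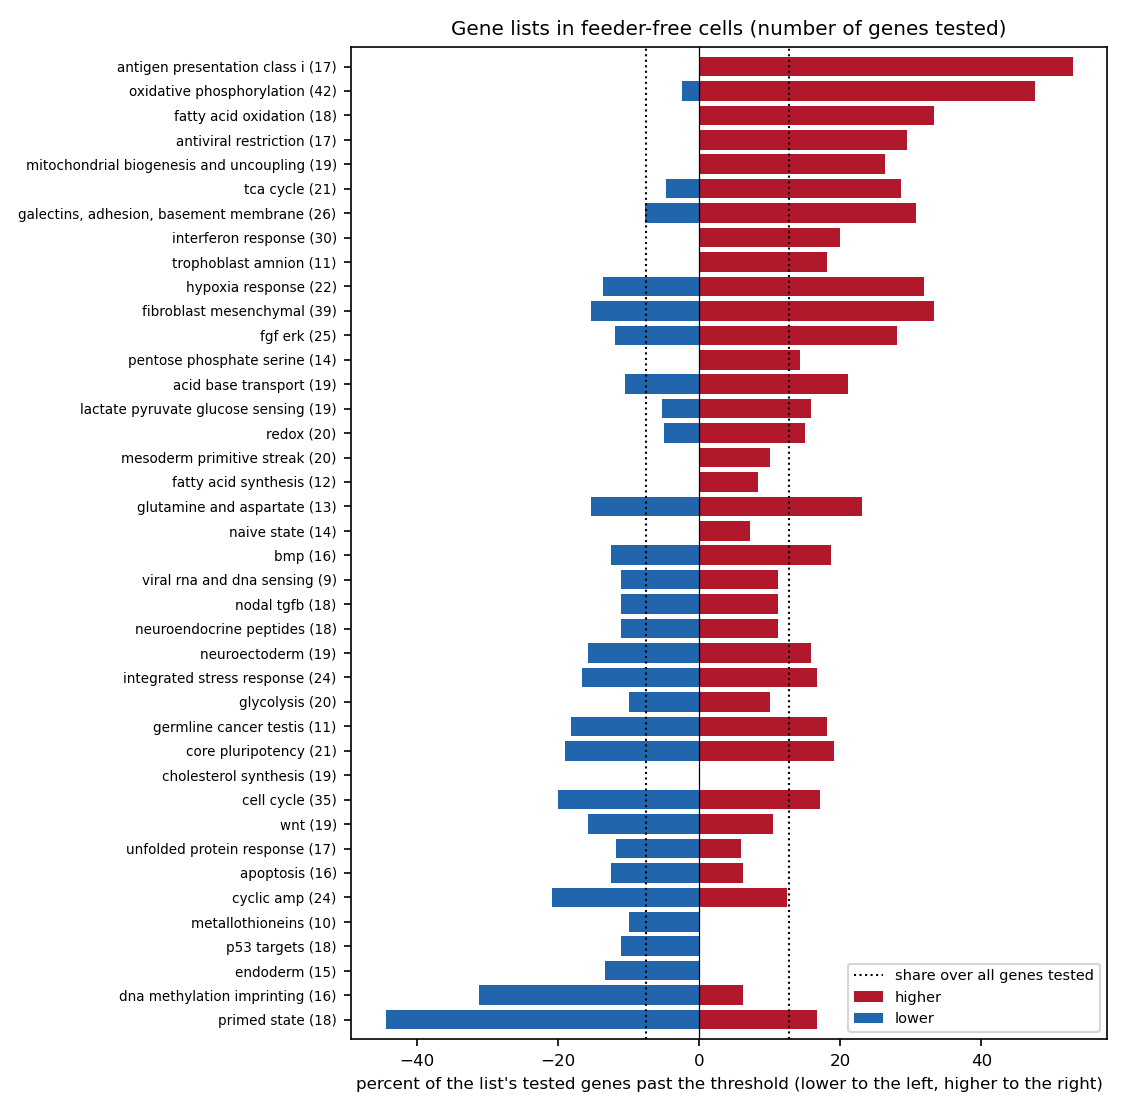
Percent of each list's tested genes (x axis) that were higher (red, right) or lower (blue, left) past the threshold, for 40 gene lists ordered by the balance of both, with the number of genes tested in brackets. Dotted lines mark the shares over all genes tested, 12.8% higher and 7.52% lower; class I antigen presentation and oxidative phosphorylation reach farthest to the right and primed-state genes farthest to the left.

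Genes that mark the primed pluripotent state fell more often than they rose, with 8 of 18 lower and 3 higher and a median of -0.21. Among all genes tested 7.52% were lower and 12.8% higher. OTX2 fell most, followed by FGF2, the growth factor that sustains primed cells (from 10.02, 9.47 and 10.04 to 9.14, 8.70 and 9.26, -0.81, SE 0.07), SOX11 (-0.72), VCAN (-0.42), SALL2 (-0.41), NLGN4X (-0.31), the DNA methyltransferase DNMT3A (-0.23) and CD24 (-0.19). HMX2, PTPRZ1 (0.27) and DUSP6 (0.39) rose. Of 14 naive-state genes 1 rose, the transcription factor TFCP2L1, from 6.26, 5.89 and 6.11 to 7.204, 7.25 and 7.11 (1.10, SE 0.11), without overlap. TFCP2L1 rose by 0.52 over the mean of its probe sets, and without H1, 4 naive-state genes were higher. KLF5 differed by 0.31 (adjusted p = 0.0529). In the core pluripotency list of 21, PRDM14 (-0.61), SALL4 (-0.37), L1TD1 (-0.17) and LIN28A (-0.14) fell and UTF1 (0.61), CD9 (0.48), SALL1 (0.38) and TERF1 (0.26) rose. Without H1, 2 of this list rose and 2 fell, and 1 primed-state gene rose; without HSF1, 2 of the core list fell. With the mean of probe sets FGF2 fell by 0.45, 2 of the core list rose and CD9 (0.30, adjusted p = 0.0645) did not pass.

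Of 16 regulators of DNA methylation and imprinted genes 5 fell and 1 rose, with 2 above 0 and a median of -0.18. The falls were TET3 (-0.69), the imprint protector ZFP57 (-0.54), GRB10 (-0.41), DNMT3A and TRIM28 (-0.21). Without H1, 1 of these genes passed as lower, as did 1 over the mean of probe sets, and 3 without HSF1. On the mean of probe sets TET3 differed by -0.36 and GRB10 by -0.38 (adjusted p = 0.0532). TET1, the demethylating enzyme of pluripotent cells, rose by 0.30 at the probe set used, but its probe sets disagreed and their mean differed by -0.04. TET1 did not pass without HSF1 (adjusted p = 0.0791), nor GRB10 without H1 (0.0691).

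Lineage genes moved singly. Of 19 neuroectoderm genes 3 rose and 3 fell. HESX1, a forebrain homeobox gene that is also active in pluripotent cells, fell from 8.59, 8.35 and 8.13 to 7.43, 6.56 and 6.48 (-1.53, SE 0.13), while GBX2 (0.78), POU3F1 (0.75) and DCX (0.70) rose. Of 15 endoderm genes AFP, alpha-fetoprotein, fell from 8.89, 7.53 and 8.10 to 7.34, 6.18 and 6.88 (-1.37, SE 0.10) and CLDN6 by 0.29. In the mesoderm list of 20, KDR, the VEGF receptor, rose by 0.98 and MSX1 by 0.62. In the trophoblast and amnion list of 11, GABRP and the keratin gene KRT18 (0.45) rose. CLDN6 did not pass without H1 (adjusted p = 0.116) or HSF1 (0.131), nor MSX1 without HSF1 (0.0847). On probe-set means CLDN6 (-0.22, adjusted p = 0.102) and MSX1 (0.32, 0.167) did not pass, and POU3F1 rose by 0.37. Without HSF1, 1 mesoderm gene rose and 2 fell, and without H1 or without HSF1 the endoderm list had 1 fall.

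Several matrix genes rose and several contractile genes fell. Of 39 matrix and mesenchymal genes 13 rose and 6 fell, with a median of 0.31, though the line medians ran from -0.08 in H1 through 0.26 in H9 to 0.63 in HSF1. LGALS1, NID2, CTHRC1 (1.42), the collagen genes COL6A3 (1.25), COL1A2 (0.84), COL1A1 (0.74), COL5A2 (0.71) and COL5A1 (0.51), FBLN2 (1.16), S100A11 (1.01), fibronectin FN1 (0.89), S100A4 (0.67) and TIMP1 (0.45) rose. TAGLN (-1.38), the tropomyosins TPM2 (-1.04) and TPM1 (-1.004), the intermediate filament gene VIM (-0.85), CCN1 (-0.53) and SPARC (-0.45) fell. TPM2 went from 11.33, 10.77 and 10.95 to 10.27, 9.81 and 9.84, without overlap. Without HSF1 the count of risen genes was 8, and over the mean of probe sets 7, with TPM2 at -0.56. On a list of galectins, adhesion molecules and basement membrane genes, which shares LGALS1 and NID2 with the matrix list, 8 of 26 rose and 2 fell. The cell adhesion molecule L1CAM rose by 1.49 (SE 0.16), NID1 by 1.31, the integrin subunits ITGA5 by 0.69 and ITGB1 by 0.43 and the laminin LAMA1 by 0.63, and EPCAM, the adhesion molecule of epithelial and pluripotent cells, fell by 0.26; without H1, 0 of the list fell. L1CAM rose by 0.73 on its probe-set mean.

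In the signalling lists, members of the same pathway went opposite ways. Of 25 FGF and ERK genes 7 rose and 3 fell: the ERK targets and brakes IER3 (0.85), ETV5 (0.71), DUSP5 (0.50), SPRED2 (0.46) and DUSP6 rose, and FGF2, DUSP4 (-0.49) and PHLDA1 (-0.37) fell. Among TGF-beta family genes the inhibitory SMADs SMAD7 (0.68, SE 0.12) and SMAD6 (0.65) rose and the Activin subunit INHBA fell by 1.07. In the Nodal and TGF-beta list 2 of 18 genes were higher and 2 lower, 22.2% in all, near the 20.3% of all genes tested. Of 16 BMP genes 3 rose and 2 fell, and the BMP targets split into ID2 (0.56) and ID1 (-0.67). Of 19 WNT genes CCND1, cyclin D1 (0.99), and SP5 (0.44) rose, and the WNT-binding proteins SFRP1 (-0.82) and FRZB (-0.73) and the receptor FZD7 (-0.53) fell. In cyclic AMP signalling, where 3 of 24 rose and 5 fell, the other phosphodiesterases PDE3A (-0.54) and PDE3B (-0.36) fell with PDE4B, and PDE4A (0.68) and the adenylate cyclase ADCY7 (1.20, SE 0.09) rose. The kinase subunits PRKAR2B (-0.51) and PRKACB (-0.41) fell. These counts moved with the settings: of the FGF and ERK genes 4 rose and 1 fell without H1, 1 fell without H9, and 3 rose over the mean of probe sets. Of the WNT genes 1 rose without any 1 of the lines. Of the cyclic AMP genes 3 fell without H9 or without HSF1, and 1 rose over the mean of probe sets. ADCY7, with DMSO values under the array median in every line, then rose by 0.57, while SMAD6 (0.17, adjusted p = 0.187), ETV5 (0.36, 0.0611) and PRKACB (-0.20, 0.0897) did not pass.

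Of 35 cell cycle genes 6 rose and 7 fell, with a median of -0.05. The CDK inhibitor CDKN1C went from 8.12, 8.29 and 8.19 to 9.14, 9.18 and 9.23 (0.99, SE 0.08), and CDKN1B rose by 0.39, while CDK6 (-0.87), CCNE2, cyclin E2 (-0.79), and MKI67 (-0.28) fell and CDK1 (0.27) rose. Without H1, 2 of the list rose, without HSF1, 3 rose and 3 fell, and over the mean of probe sets 3 rose, with CDKN1C at 0.53. Of 18 p53 targets TP53I3 (-0.93) and RRM2B (-0.55) fell and 0 rose (1 without H1). Of 16 apoptosis genes the initiator caspase CASP8 rose by 1.33 (SE 0.13) and BCL2L1 (-0.39) and BID (-0.37) fell, though neither passed without H1 (adjusted p = 0.0845 and 0.108) or without HSF1 (0.0622 and 0.0524). On probe-set means CASP8 rose by 0.51 and BCL2L1 differed by -0.15 (adjusted p = 0.295). The metallothioneins, small metal-binding proteins, gave 1 fall of 10, MT1M, from 6.64, 7.06 and 5.13 to 3.95, 3.79 and 4.07 (-2.34, SE 0.37). Their median difference was -1.70 in H1, -0.95 in H9 and 0.15 in HSF1, and 7 of 10 were lower without HSF1. In the robust fit MT1M did not pass, and its inhibitor values lay near background. Of 18 neuroendocrine genes NTS and SCG5 (0.45) rose and SCG3 (-0.50) and TAC1 (-0.68) fell.

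Fewer genes passed the test on feeders. Every feeder-supported array had a narrower spread of values than the feeder-free arrays, whose interquartile ranges were 3.08 to 3.30. The feeder-supported HSF1 arrays stand farthest apart, with interquartile ranges of 2.45 against 2.66 to 2.85 on the other feeder-supported arrays. The part of this narrower spread in the smaller differences on feeders was not tested. In a fit over 12 arrays with each pair of 1 line in 1 culture system as a block, 2413 genes passed in feeder-free cells and 86 (0.499% of 17218) on feeders, where 2451 had an unadjusted p under 0.05. Of the 3313 genes called without feeders 2804 had the same sign on feeders, and 1470 had it in 3 of 3 lines. The median ratio of the feeder-supported to the feeder-free difference was 0.374 over these genes and 0.304 over the 243 that changed at least 2-fold; these genes were picked by their feeder-free values, which by itself lowers the ratio. The difference between the responses passed the test for 140 genes (0.813%), 67 with the feeder-free difference higher and 73 with it lower, and for 68 without the feeder-supported HSF1 pair. In 131 of the 140 the feeder-free difference was the larger in size, and in 59 the signs were opposite. Quantile normalization of the arrays, which removes the difference in spread, gave 27, of which 10 were higher and 17 lower. The count was 11 without H9, 35 without H1 and 90 without HSF1.

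Among the genes whose responses differed, CTCFL differed by 0.37 on feeders against 3.64 without, LINC01234 by 0.27 against 2.40 and BCHE by 0.34 against 2.20. KCNK12 differed by -0.09 against -1.98, OTX2 by -0.51 against -2.15 and TPM2 by 0.02 against -1.04. CUZD1 and MT1M differed by -0.03 and 0.01 on feeders against -2.78 and -2.34 without, and HMX2 differed by -0.32 on feeders against 1.92 without. LDHA differed by 0.14 on feeders and by -0.30 without (adjusted p of the difference 0.0249), and TXNIP by 0.93 on feeders and by -0.15 without (0.0215). For LDHA and TXNIP the difference between responses did not pass in most alternatives: for LDHA not without H1 (adjusted p = 0.224), H9 (0.0967) or HSF1 (0.107), and for TXNIP not without H9 (0.160) or HSF1 (0.132). CTCFL, LINC01234, BCHE, KCNK12 and TPM2 kept it without each line in turn. TPM2 lost it over the mean of its probe sets (-0.51, adjusted p = 0.101). OTX2 and HMX2 lost it without H9 (0.079 each), CUZD1 without H9 (0.178) and MT1M without H1 (0.189) or H9 (0.184). Without the pair as a block 0 genes passed. Other genes gave values nearer to each other. BST2 rose by 2.39 on feeders, a difference between responses of 0.49 (SE 0.25, adjusted p = 0.526), and LGALS1 by 1.504 (difference 0.83, adjusted p = 0.305). PDK1 and BNIP3 changed by 1.12 and 1.25 on feeders, above their feeder-free values, with adjusted p-values of the difference of 0.0899 and 0.287.

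**Figure D5:**
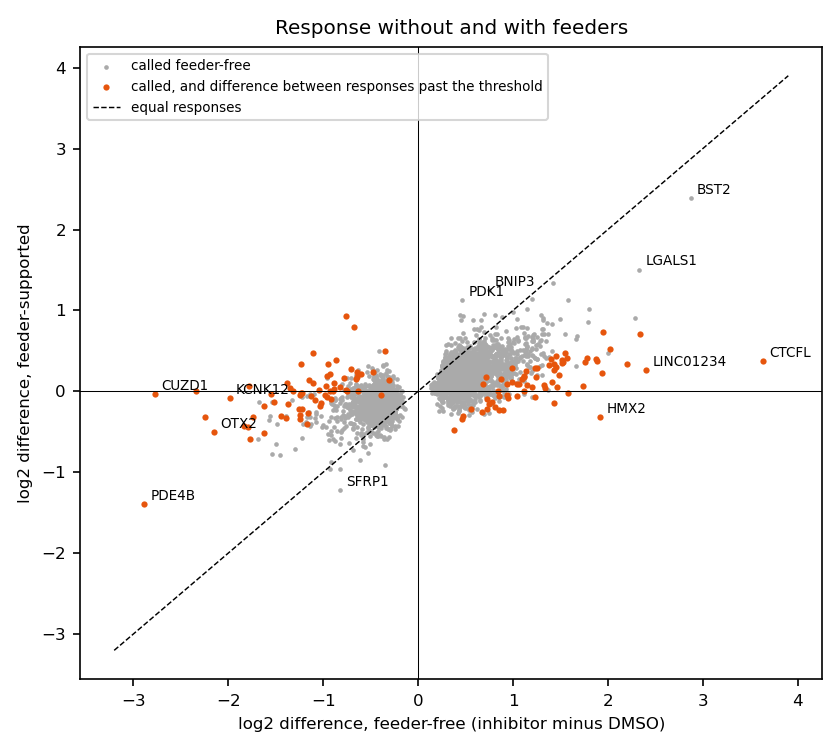
Log2 difference between inhibitor and DMSO in feeder-free cells (x axis) and in feeder-supported cells (y axis) for the 3313 genes called without feeders. Orange points are the 134 of them for which the difference between the responses passed the test; most points lie nearer to the horizontal axis than the dashed line of equal responses.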

How the data were processed

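RNA was measured on 24 Affymetrix U133 Plus arrays, 6 of which are compared here. The authors deposited log2 values for 54675 probe sets, made with RMA per the submitters' processing notes, a method that corrects background, brings arrays to a common distribution and summarises probes; that step makes shifts common to most genes invisible. Software version and genome build: not given in the sources used here. There is no read depth, and 3 pairs of arrays set the precision.

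From these values 41097 probe sets naming 1 gene were kept (1801 name several, 11777 none; 41043 matched the gene table by Entrez identifier). Where a gene had several, the set brightest on average across the 24 arrays stood for it, and genes above log2 5 on at least 3 of the arrays compared were tested. The test was limma's moderated linear model (limma 3.58.1, R 4.3.3, eBayes with an intensity trend, Benjamini-Hochberg threshold 0.05). All adjusted p-values are limma's, and differences are log2, inhibitor minus DMSO, with their fitted standard error (SE). The feeder-free fit used 6 arrays with the line as block, since numbers stand for cell lines and so pair the samples (array correlations of 0.978 to 0.988 within pairs). The comparison with feeders used 12 arrays with each pair as a block.

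The text names the 15 largest rises and falls among genes called that moved alike in 3 of 3 lines, up to 3 members of each of 40 lists by p, the 4 smallest p in each direction of the comparison with feeders and 18 fixed genes; other list members called are given to account for their list, and the promoters and levels in unconditioned medium were chosen after values were seen. The members, lists and rule were chosen with earlier results of these data known. Scripts were tested on simulated data. Alternatives covered block, arrays, normalization, filter, probe sets, trend and robust fitting, and leaving out each line.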

Additional observations from a re-analysis of the deposited data

Results flagged for a closer look

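For 32 of the named genes the inhibitor response differed between feeder-free and feeder-supported cells in a test of the difference itself (limma, 12 arrays). Values are the feeder-free minus the feeder-supported log2 difference. It was higher without feeders for CTCFL (3.27), BCHE (1.85), LINC01234 (2.14), HSPA12A (1.29), HMX2 (2.23), LINC02249 (1.47), IFIH1 (1.52), NID2 (1.22), CDC42EP5 (1.72), DPEP3 (1.58), CLIC6 (1.62), MACC1-OT1 (1.503), TFCP2L1 (0.95), ID2 (0.77) and CDKN1C (0.70). It was lower without feeders for KCNK12 (-1.90), TPM2 (-1.06), CCL26 (-1.85), PPP1R17 (-1.43), OTX2 (-1.64), AFP (-1.22), CUZD1 (-2.74), H2AC6 (-1.11), SMOC2 (-1.44), PLCL2 (-1.19), TXNIP (-1.08), MT1M (-2.35), SEMA6D (-1.94), LDHA (-0.44), H2BC12 (-1.40), PDE4B (-1.49) and ABCA5 (-1.35). PDE4B (-1.39) and NID2 (0.73) passed the test on feeders too, each in its feeder-free direction. TXNIP passed the test as higher on feeders (0.93), against -0.15 without them, and LDHA differed by 0.14 on feeders. Several of these genes, among them CTCFL, BCHE, LINC01234 and CDC42EP5, lie near background with DMSO. Others, among them KCNK12, MT1M, CCL26, ABCA5 and SEMA6D, lie near it with the inhibitor. The part of that background in these values was not tested. All feeder-supported arrays have a narrower range of values than the feeder-free arrays, and the HSF1 pair has the narrowest. Without that pair 68 genes passed, 61 of them among the 140, and 15 of the 32 named genes did not pass. Quantile normalization, which removes the difference in spread, lost 20 of the 32, and no intensity trend lost 12. The mean of probe sets lost 15, among them TPM2 (-0.51, adjusted p = 0.101). All 32 lost the call without the block and 29 with the line as block. Without each line in turn 6 of the 32 kept the call (BCHE, CTCFL, KCNK12, LINC01234, PPP1R17 and TPM2); 26 lost it without H9, 16 without H1 and 13 without HSF1. For LDHA the adjusted p was then 0.0967 to 0.224, and TXNIP lost it without H9 (0.160) and HSF1 (0.132).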

How the results depend on the processing

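The feeder-free comparison called 3313 genes. Without pairing by line (no replicate block) it called 245, and with 12 arrays and the line as block 145, of which 144 were among the 3313; leaving out 1 line gave 1853 to 2669. The other 9 alternatives, among them quantile normalization, other filters and the mean of probe sets, stayed within 1.5 times the count. All 3313 genes kept their direction in the alternatives that used the same probe set, apart from those with a common median and the filter at 7. There the counts were 3312 and 2776. The filter at 7 only removes genes from the test, and the count with a common median does not separate removal from reversal. In most of these alternatives the direction was fixed in advance. A changed block, trend, filter or robust fit leaves a gene's log2 difference as it was. The genes called moved alike in 3 of 3 lines, so leaving out 1 line could not reverse them. With the mean of probe sets TET1 turned to -0.042, and 60 called genes took the opposite sign; of 2084 called genes with several probe sets, all went the same way in 1291. Of 121 named genes called, 84 lost the call without the block, 85 with 12 arrays and the line as block, 19 with the mean of probe sets, 15 without H1, 4 without H9 and 14 without HSF1, and 25 kept it throughout; without each line in turn 102 kept it.

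The difference between feeder-free and feeder-supported responses passed for 140 genes. Without the block it passed for 0 genes in limma (207 at an unadjusted p under 0.05) and with the line as block for 3. Leaving out 1 line gave 11 to 90, leaving out the feeder-supported HSF1 pair 68, quantile normalization 27, the mean of probe sets 85 and no intensity trend 84. Direction was kept by all 140 where the same probe sets were used. A changed block, filter or trend leaves the difference itself as it was, so direction could not turn there. With probe-set means 134 kept it. The others include genes that were not tested there, such as IFIH1 and ABCA5. Arrays near background, with 3 lines per group, limit what can be said of genes under the array median.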

Other observations

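Some gene families stood out only after values had been seen, and they are given here as counts with no test of the family. Over all genes tested 12.8% were higher and 7.52% lower. Of 16 glutathione S-transferase genes, whose products conjugate glutathione to reactive compounds, 9 were higher with the inhibitor and 0 lower, with a median log2 difference of 0.42 (0.45 in H1, 0.50 in H9 and 0.32 in HSF1). GSTA4 rose by 1.41, GSTT2 by 1.18 and GSTO2 by 1.13. Of 31 histone genes 10 were lower and 1 higher, with H2BC5 at -1.23, H4C8 at -0.88 and the linker histone H1-2 at -0.70, while H1-10 rose by 0.42. Of 14 beta protocadherin genes 7 were lower and 0 higher, led by PCDHB16 (-0.69) and PCDHB14 (-0.61). In a set of 16 genes picked by name, mostly of the actin cytoskeleton together with CCN1 and CCN2, 8 were lower and 0 higher. Among them were ACTA1 (-1.52), ACTG2 (-1.13) and MYL9 (-0.92), and the set's median was -0.67 in H1, -0.41 in H9 and -0.16 in HSF1. This set shares TAGLN, TPM1, TPM2 and CCN1 with the matrix list. The glutathione S-transferase, histone and beta protocadherin families each hold members close in sequence, and how far their probe sets share signal was not tested.

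A set of 15 genes of the HLA class II pathway, which presents peptides to helper T cells, was picked as HLA-D genes with CD74 and CIITA where tested. Of these 4 were higher and 0 lower, with HLA-DRA at 0.98 and HLA-DPA1 at 0.83. In retinoid metabolism 4 of 12 genes were higher and 1 lower: the retinaldehyde dehydrogenases ALDH1A1 (1.58) and ALDH1A3 (1.26) and LRAT (0.95) rose, and the retinaldehyde reductase DHRS3 fell by 1.23. The mean DMSO level of ALDH1A1 was 4.85, under the array medians and near background. Of 76 mitochondrial ribosomal protein genes 15 were higher and 1 lower, against 12.8% and 7.52% of all genes tested, with a median of 0.05.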
